A study of Mus musculus with 4 samples.

Results

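Csf1r, Alas2, Ccna2, Mcm7 and Ddit3 are marker genes of myeloid cells, red cell precursors, dividing cells and stressed cells, and each shares exon bases with a more broadly used gene on the opposite DNA strand. The partners are Hmgxb3, Apex2, Exosc9, Ap4m1 and Mars, in that order. These 10 genes, in 5 pairs, were taken from the 50600 genes of the tables. The markers were chosen by their high counts in these same libraries, so the levels of the markers and their ratios to the partners are given as a description, with no test. RNA was sequenced from 4 samples of 1 group, mouse primary cells of strain C57BL/6NJ labelled as T-helper 2 cells, the CD4 T cells that make interleukins of allergic and anti-parasite responses. Numbers 1 to 4 mark them as biological replicates. All carry the same donor identifier, the sex was not collected and the age is unknown. The labels call the RNA total RNA while the linked library protocol is named for poly(A)+ RNA, and the file headers name 0 hr of a Th1 and Th2 time course. Nothing in the labels says that the samples came from separate mice or cultures, so the p-value of a test over them measures only the spread between these 4 samples, which may be technical.

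Genes that lie on opposite strands and share exon bases are common in mammals. Pairs that meet at their 3′ ends lie tail to tail, those that meet at their 5′ ends lie head to head, and in nested pairs the span of 1 gene holds the other. A read from the shared bases can be given to the right gene only if the library keeps the strand of the RNA and the counting uses it. The 5 markers are used to recognise cell states: Csf1r encodes the receptor of the macrophage growth factor, Alas2 the first enzyme of haem synthesis in red cell precursors, Ccna2 cyclin A2 of S phase and mitosis, Mcm7 a subunit of the replicative helicase, and Ddit3 the stress transcription factor CHOP.

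A count here is a fragment that the authors placed on the annotated strand of a gene, with the strand setting 1 of featureCounts, per the file headers. Whether the first read of a pair carries the strand of the RNA in these libraries is not given in the sources used here. The mitochondrial genome offers a measurement of it, because mt-Nd6 is the only mitochondrial mRNA that is encoded on the strand opposite to the other 12. mt-Nd6 held 24273 to 35280 counts per library, while the other 12 mRNAs together held 1617 to 3083, a summed ratio of 13.3. The levels below are therefore levels of fragments on the annotated strand of each gene, and whether they came from RNA of that gene cannot be told apart here from RNA of the opposite strand. Library totals ran from 1452053 to 2351916 counts, and a gene at 0 may have had up to 3 counts, which is 1.28 to 2.07 CPM, a unit that scales counts to library size. All 15 T cell identity genes reached a mean of 1 TPM (the count divided by exon length and scaled to a fixed sum per library), and Cd4 had 29.6 ± 7.96 TPM (SD, n = 4). Among genes that define the T-helper 2 state, Gata3 had 5.87 ± 2.08 TPM and Il4 7.96 ± 5.76 TPM (SD, n = 4), and Il5 and Il13 had 0 counts in every library.

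The map of the 5 pairs shows 3 arrangements. Csf1r at chr18:61105572-61132149 on the plus strand met Hmgxb3 at chr18:61131279-61177050 on the minus strand tail to tail (GENCODE mouse release 13, build mm10, as are all gene positions here). They shared 871 exon bases, 17.8% of the exon length of Csf1r and 17.1% of that of Hmgxb3. In release 21, 1 of 6 Csf1r transcripts and 4 of 9 Hmgxb3 transcripts reached into the shared bases, which held 7 coding bases of Hmgxb3 and none of Csf1r. The RefSeq spans of these genes left a gap of 137 bases, so this overlap depended on the annotation. It was the one pair of the 5 without a RefSeq span overlap.

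Ccna2 at chr3:36564865-36572150 on the minus strand and Exosc9 at chr3:36552606-36565727 on the plus strand also met tail to tail. They shared 510 exon bases, 12.5% of the exons of Ccna2 and 10.8% of those of Exosc9, with 156 coding bases of Exosc9. Ddit3 at chr10:127290774-127296288 on the plus strand and Mars at chr10:127296221-127311786 on the minus strand had the shortest overlap of the 5. It spanned 68 untranslated bases, 3.97% of the exons of Ddit3 and 1.99% of those of Mars.

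Alas2 at chrX:150547375-150570638 on the plus strand lay within the span of Apex2, chrX:150519519-150589868 on the minus strand. The shared 311 bases were the last exon of Alas2, with 161 of its coding bases, and lay in an exon that 1 of 10 Apex2 transcripts of release 21 carried. Mcm7 at chr5:138164583-138172422 on the minus strand and Ap4m1 at chr5:138172002-138180429 on the plus strand met head to head. They shared 321 exon bases in 2 stretches, 7.25% of the exons of Mcm7 and 5.99% of those of Ap4m1. In release 21, 1 of 10 Mcm7 transcripts and 4 of 7 Ap4m1 transcripts reached into these bases. The shared bases held 132 coding bases of Ap4m1 and none of Mcm7.

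**Figure D1:**
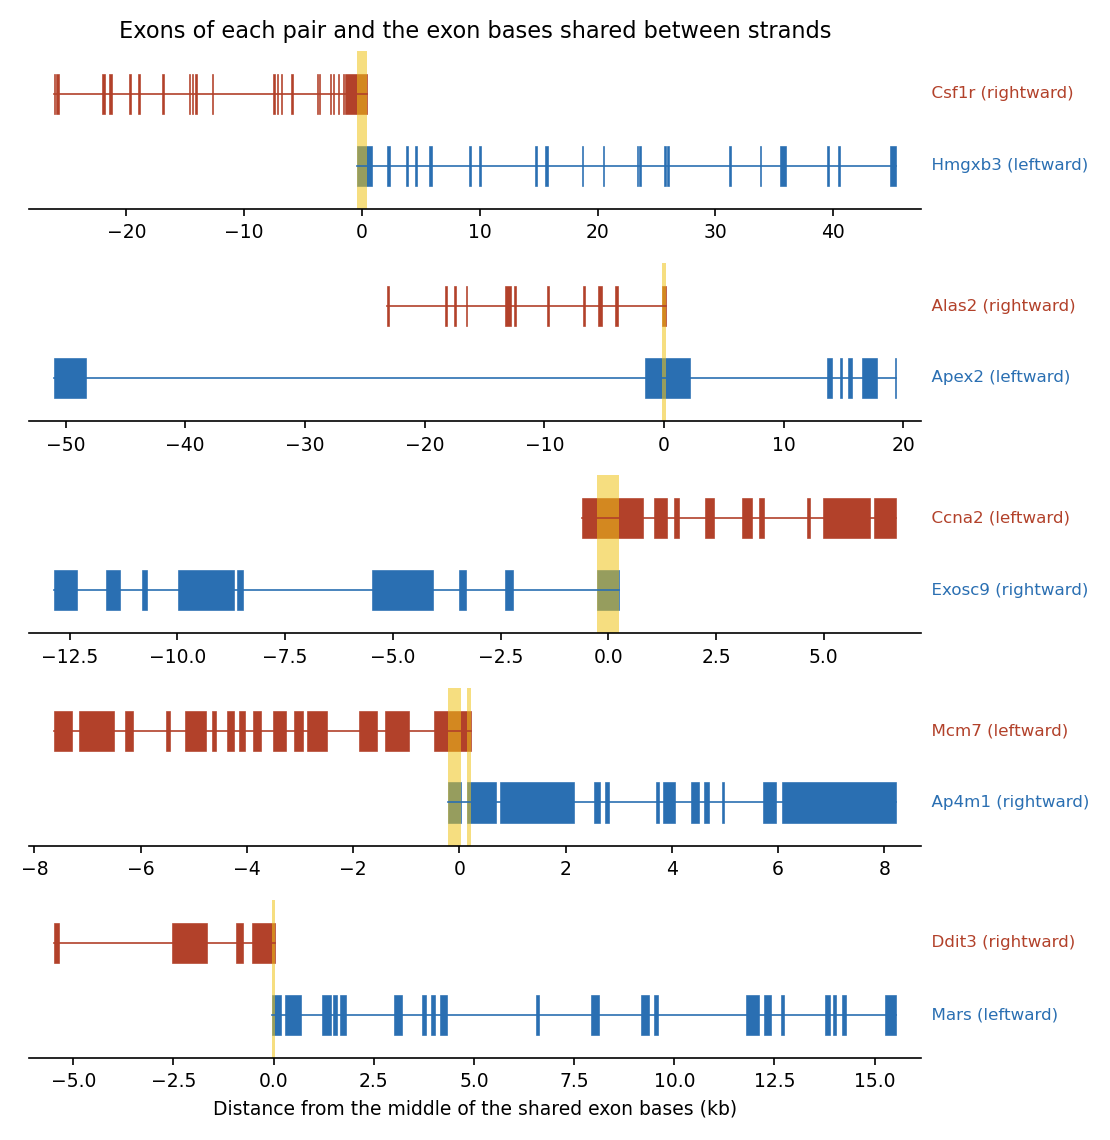
Exons (boxes) of the marker (red) and the neighbour (blue) of each pair, with the direction of transcription beside the name and the distance from the middle of the shared exon bases in kb on the x axis. Yellow bands mark the shared exon bases, which run from 68 for Ddit3 and Mars to 871 for Csf1r and Hmgxb3.

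The head to head pair is shown by promoter sequence because windows of both genes cover the same stretch of DNA. RefSeq promoter windows of build GRCm38.p6 were kept for 5 of the 10 genes. Any windows on the chromosome of Csf1r and Hmgxb3 were left out. Each window runs from 250 bases before to 50 after the start site and is read on its gene's own strand. Mcm7 has 2 windows. The one shown is chr5:138171834-138172133 on the minus strand, whose start site lies 138 bases from that of Ap4m1. The other, chr5:138171217-138171516, starts 755 bases from Ap4m1, does not reach the Ap4m1 window, and holds 1 CCAAT box and 0 E2F motifs. The window of Ap4m1 is chr5:138171771-138172070 on the plus strand. The Mcm7 transcript that carries the shared exon bases starts beyond both of these Mcm7 start sites, within the span of Ap4m1. Capitals mark matches, on either strand, to the CCAAT box (CCAAT) and to E2F motifs (TTTCCCGC, TTTCGCGC, TTTGCCGC or TTTGGCGC).
Mcm7: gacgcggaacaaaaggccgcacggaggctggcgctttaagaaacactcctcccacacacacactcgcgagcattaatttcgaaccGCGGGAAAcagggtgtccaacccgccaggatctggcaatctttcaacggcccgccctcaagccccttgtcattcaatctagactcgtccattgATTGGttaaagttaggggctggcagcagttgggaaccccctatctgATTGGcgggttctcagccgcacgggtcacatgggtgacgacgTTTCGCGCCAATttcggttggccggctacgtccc
Ap4m1: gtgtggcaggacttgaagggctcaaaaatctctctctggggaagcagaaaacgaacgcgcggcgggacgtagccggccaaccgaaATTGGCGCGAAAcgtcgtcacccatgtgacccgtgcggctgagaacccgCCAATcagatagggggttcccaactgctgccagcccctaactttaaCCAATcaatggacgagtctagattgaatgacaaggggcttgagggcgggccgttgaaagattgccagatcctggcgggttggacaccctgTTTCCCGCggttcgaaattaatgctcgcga
The printed windows hold 237 bases in common, read on opposite strands, and each holds 3 CCAAT boxes and 2 E2F motifs. All of these lie in the bases in common, so they are the same sites seen from both strands. One E2F match and one CCAAT match overlap by 1 base, and print as a single run of capitals. Of all 32851 RefSeq promoter windows, 37.4% held a CCAAT box and 2.26% an E2F motif. E2F factors are known to switch on replication genes such as the Mcm family. A match is a description of the letters only.

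Csf1r had 771, 673, 681 and 555 counts in replicates 1 to 4, against 15, 10, 2 and 2 for Hmgxb3, whose product carries an HMG box, a DNA-binding fold. Csf1r was high in all 4 libraries, and Hmgxb3 was low in all 4 and at or under 2 counts in replicates 3 and 4. As TPM, Csf1r stood at 107 ± 10.7 and Hmgxb3 at 1.02 ± 0.824 (SD, n = 4). In bulk samples, a change in the share of cells and a change in RNA per cell cannot be told apart. The mean log2 ratio of Csf1r to Hmgxb3, taken as log2(TPM + 0.1) like all such ratios here, was 6.91 ± 1.23 (SD, n = 4). From counts summed over libraries and divided by exon length, Csf1r was 96.5-fold denser, with an exact 95% interval of 67.0 to 144. This interval and those below cover counting error at most and leave out the spread between libraries. Here the log2 ratio ran from 5.68 in replicate 1 to 8.06 in replicate 3. The intervals also take each count as independent, while without molecular identifiers several reads can stem from 1 molecule.

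Alas2 had 40, 25, 60 and 25 counts in replicates 1 to 4, and Apex2, an endonuclease that acts on abasic sites in DNA, had 8, 10, 5 and 3. Replicate 3 was the highest for Alas2 and replicate 2 the lowest once scaled to library size, with 19.1 and 7.01 TPM. The means were 12.1 ± 5.07 TPM for Alas2 and 0.551 ± 0.187 TPM for Apex2 (SD, n = 4), and the groups of values did not overlap. The log2 ratio was 4.19 ± 0.91 (SD, n = 4), and the summed density of Alas2 was 21.0-fold that of Apex2 (exact 95% interval 13.8 to 33.2). With 26 counts over all libraries, Apex2 was the member with the fewest.

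Ccna2 had 345, 341, 358 and 241 counts, and Exosc9, a ring subunit of the RNA-degrading exosome, had 27, 19, 9 and 20. Ccna2 varied little once scaled, at 61.0 ± 4.69 TPM, while Exosc9 ranged from 1.47 TPM in replicate 3 to 4.43 TPM in replicate 4 with a mean of 3.15 ± 1.34 (SD, n = 4). The library with the highest Ccna2 level, replicate 3 at 67.2 TPM, was the one with the lowest Exosc9 level. The log2 ratio of Ccna2 to Exosc9 was 4.34 ± 0.76 (SD, n = 4), a summed density 19.8-fold higher for Ccna2 (exact 95% interval 15.6 to 25.3).

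Mcm7 and Ap4m1 stood in the reverse order. Mcm7 had 225, 184, 169 and 129 counts, and Ap4m1, the medium subunit of the AP-4 coat adaptor of the trans-Golgi network, had 1034, 960, 831 and 579. Ap4m1 was the denser gene in all 4 libraries, with 122 ± 9.11 TPM against 30.8 ± 3.24 TPM for Mcm7 (SD, n = 4). The log2 ratio of Mcm7 to Ap4m1 was -1.98 ± 0.098, the smallest spread of the 5 pairs. Summed over libraries, Ap4m1 was 3.98-fold denser (exact 95% interval 3.67 to 4.32). If all Mcm7 counts are divided by its shared exon bases alone, the log2 ratio turns to 1.80.

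Ap4m1 shared bases with another neighbour as well. Taf6, a subunit of the general transcription factor TFIID, lies tail to tail with Ap4m1 at chr5:138178617-138187451 on the minus strand and shared 1185 exon bases with it. Taf6 had 860, 729, 819 and 490 counts, 125 ± 14.8 TPM (SD, n = 4), close to the level of Ap4m1. Cops6, a signalosome subunit, shared 64 exon bases with Mcm7 at its other end and had 80, 89, 96 and 36 counts, 22.5 ± 5.89 TPM (SD, n = 4). The 4 genes thus form a chain of overlaps in which Taf6 and Ap4m1 lay high and Mcm7 and Cops6 lower. The miRNA genes Mir25 and Mir93, which lie in exons of Mcm7 on its own strand, had 0 counts in every library, an upper limit of 3 counts each.

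Ddit3 had 234, 198, 287 and 195 counts, and Mars, the cytosolic methionyl-tRNA synthetase, had 51, 55, 64 and 35. Ddit3 ranged from 77.8 TPM in replicate 2 to 128 TPM in replicate 3, with a mean of 105 ± 22.9, and Mars had 11.6 ± 1.86 TPM (SD, n = 4). Replicate 3 was the highest for both genes. The log2 ratio was 3.16 ± 0.26 (SD, n = 4) and the summed density of Ddit3 was 8.91-fold that of Mars (exact 95% interval 7.65 to 10.4). At its 5′ end Ddit3 shared 13 exon bases with the noncoding gene Gm4189 on the opposite strand, which had 11, 12, 30 and 13 counts and, like Ddit3, was highest in replicate 3.

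The remaining opposite-strand genes were near or at 0. Pfkfb1, which shared 123 exon bases with Apex2 and encodes a regulator of glycolysis, had 0, 1, 0 and 1 counts, and Mir3620, which lies opposite the first exon of Alas2, had 0 counts.

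**Figure D2:**
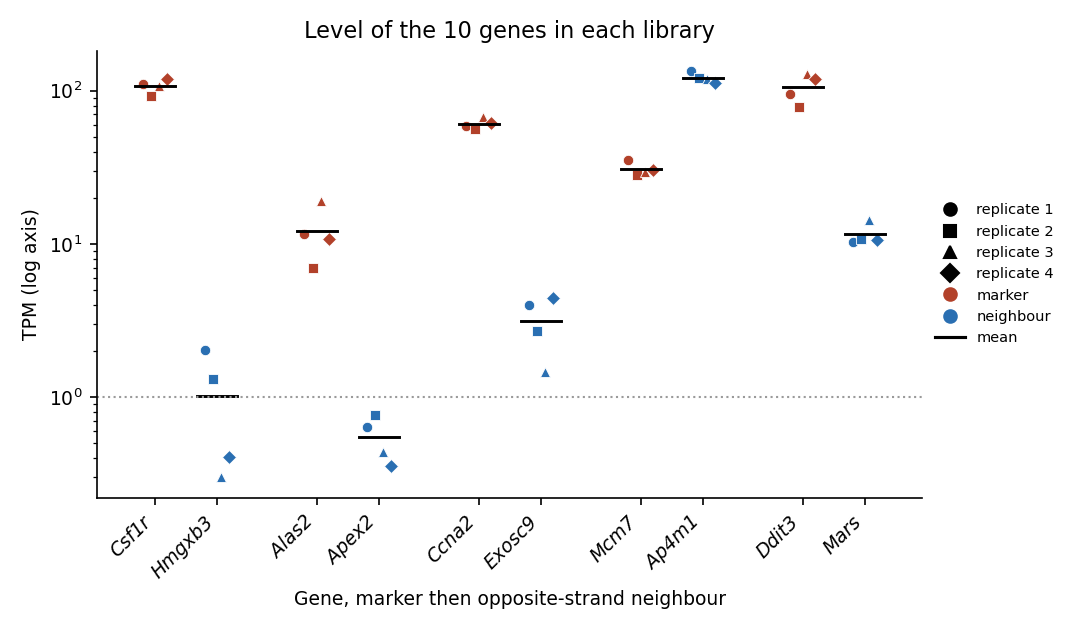
Level of each gene in TPM on a log axis, with 1 symbol per replicate, the marker of a pair in red, its neighbour in blue and the mean as a black bar. The dotted line is 1 TPM; Apex2 lies below it in all 4 libraries, and Ap4m1 at 122 TPM is the one neighbour above its marker.

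Ranked by mean TPM, the genes ran Ap4m1, Csf1r, Ddit3, Ccna2, Mcm7, Alas2, Mars, Exosc9, Hmgxb3 and Apex2. The ranges over libraries of Ap4m1 and Csf1r overlapped, as did those of Csf1r and Ddit3, of Alas2 and Mars, of Exosc9 and Hmgxb3, and of Hmgxb3 and Apex2. Ddit3 and Ccna2, Ccna2 and Mcm7, Mcm7 and Alas2, and Mars and Exosc9 were separate in every library. A mean of at least 1 TPM, called detected here, was reached by 9 of the 10 genes, all 5 markers and 4 neighbours. For Hmgxb3 this rested on replicates 1 and 2, since its mean was 0.677 TPM without the first and 0.919 TPM without the second. Among all 2594 coding genes that share exon bases with a coding gene of the opposite strand, 1910 were detected, which is 73.6%. Among the 16963 coding genes with no exon overlap on the opposite strand, 4612 were, which is 27.2%. Since the markers were chosen by their counts, nothing is read from their own share.

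The other genes of the pathways to which the markers belong were taken from lists. Of 20 macrophage and monocyte markers, 5 were detected and 10 had 0 counts in all libraries, among them Adgre1, Lyz2, Cd14, Mertk, Marco and Mpeg1. Csf1r took 85.4% ± 3.77 of the counts of this list (SD, n = 4), and the summed TPM of the other 19 genes ran from 36.9 to 57.0. Csf1r shares exon bases with a gene of the opposite strand and ranked first, while the 2 next, Tyrobp at 14.1 ± 4.89 TPM and Ctss at 14.0 ± 4.25 TPM, do not. Tyrobp encodes a signalling adaptor and Ctss cathepsin S. Cd163, with 83, 92, 45 and 38 counts and 8.87 ± 2.46 TPM, and Cd68, at 4.60 ± 2.84 TPM, were also detected (SD, n = 4). Neither of them has an opposite exon overlap.

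Of the 23 matched erythroid and haem synthesis genes, 5 were detected and 9 had 0 counts, including the 4 globin genes Hba-a1, Hba-a2, Hbb-bs and Hbb-bt and the red cell anion exchanger gene Slc4a1. The level of Alas2 was second to that of Ppox, the penultimate enzyme of haem synthesis, at 123 ± 11.2 TPM (SD, n = 4), and Ppox shares 791 exon bases with B4galt3. The highest genes of this list without such an overlap were Klf1, an erythroid transcription factor, at 5.01 ± 2.80 TPM and Uros, another haem enzyme, at 4.47 ± 0.438 TPM. Alas2 made up 4.64% ± 1.91 of the list's counts and 8.01% ± 3.06 of its TPM (SD, n = 4).

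Of 22 cell cycle genes, 9 were detected: 6 of 11 with an opposite exon overlap, Ccna2 included, and 3 of 11 without one. Ccna2 ranked 3, after Cdk4 at 102 ± 20.2 TPM and Ccne2 at 83.6 ± 13.4 TPM (SD, n = 4), the G1 kinase and a cyclin of S phase entry, both of which share exon bases with an opposite gene. Ccne1 at 33.3 ± 2.19 TPM and Aurka, a mitotic kinase, at 8.15 ± 3.48 TPM were the highest without an overlap. The mitotic genes Ccnb1, Ccnb2 and Bub1 had 0 counts in all libraries, and Cdk1, the kinase that works with cyclin A2, had 1 count in all. These have no opposite exon overlap. Cdk2, Cdk6, Plk1, Cdc20 and Ube2c, which have one, were also below 1 TPM, from 0.0766 TPM for Plk1 to 0.857 TPM for Ube2c. Mki67, in the same list and without an overlap, had 72, 94, 76 and 43 counts, 5.38 ± 0.818 TPM (SD, n = 4). Ccna2 held 20.7% ± 0.809 of the list's counts (SD, n = 4).

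Of 24 DNA replication genes, 12 were detected: 5 of 7 with an opposite exon overlap, Mcm7 included, and 7 of 17 without one. Cdc45 and Pole, which have an overlap, had 0 counts and 0.0546 TPM. Mcm7 ranked 2, after Gins2, another helicase subunit, at 470 ± 68.4 TPM (SD, n = 4), which shares 2758 exon bases with Gse1. The other 5 subunits of the ring that Mcm7 belongs to, Mcm2, Mcm3, Mcm4, Mcm5 and Mcm6, have no opposite exon overlap and stood between 0.958 TPM for Mcm5 and 2.42 TPM for Mcm4, against 30.8 TPM for Mcm7. Mcm7 held 6.39% ± 1.01 of the counts of its list (SD, n = 4).

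Of 23 stress response genes, 12 were detected and Ddit3 ranked first, with 25.1% ± 4.60 of the counts and 38.8% ± 6.15 of the TPM (SD, n = 4). Hsp90b1, an endoplasmic reticulum chaperone with an overlap, followed at 51.3 ± 2.96 TPM, and Calr and Hspa5, chaperones of the same compartment without one, had 34.3 ± 9.42 and 24.4 ± 5.82 TPM. Genes that stress signalling is known to induce were split: Chac1, Asns, Sesn2 and Nupr1 had 0 counts in all libraries and Trib3 had 5, 0, 0 and 0. Ppp1r15a was at 10.9 ± 1.54 TPM, Ddit4 at 8.86 ± 5.98, Herpud1 at 4.18 ± 2.32 and Cebpb at 2.70 ± 2.52 TPM (SD, n = 4). Atf4, the upstream factor, had 14.3 ± 2.20 TPM (SD, n = 4).

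Of the 107 other genes in the 5 marker lists, 13 of 25 with an opposite exon overlap were detected, 52.0%, and 25 of 82 without one, 30.5%. Of the 81 others in the neighbours' lists, the corresponding figures were 26 of 29, 89.7%, and 41 of 52, 78.8%. These shares are descriptions of lists chosen by hand. An overlap in the lists is one with any gene of the opposite strand, noncoding genes included. The 73.6% given above covers only overlaps between coding genes. No share over all genes is given for the wider definition.

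The neighbours were placed unequally in their lists. Ap4m1 ranked 2 of 16 adaptor complex genes and took 49.0% ± 4.22 of their counts and 29.7% ± 3.75 of their TPM (SD, n = 4), after Ap4s1, the small subunit of the same AP-4 complex, at 211 ± 32.7 TPM. The remaining AP-4 subunits Ap4b1 and Ap4e1, which have no opposite exon overlap, had 0 counts and 0.395 ± 0.229 TPM. Mars ranked 2 of 23 tRNA synthetase genes after Aimp2, a scaffold of the synthetase complex, at 34.8 ± 10.5 TPM, and 22 of the 23 were detected. Exosc9 ranked 6 of 13 exosome genes, of which Exosc3 at 49.8 ± 7.64 TPM was the highest. Apex2 ranked 13 of 18 base excision repair genes, far under its relative Apex1 at 48.3 ± 6.21 TPM, and Hmgxb3 ranked 14 of 16 HMG-box genes, of which Hbp1 at 199 ± 17.9 TPM was the highest (SD, n = 4 throughout).

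**Figure D3:**
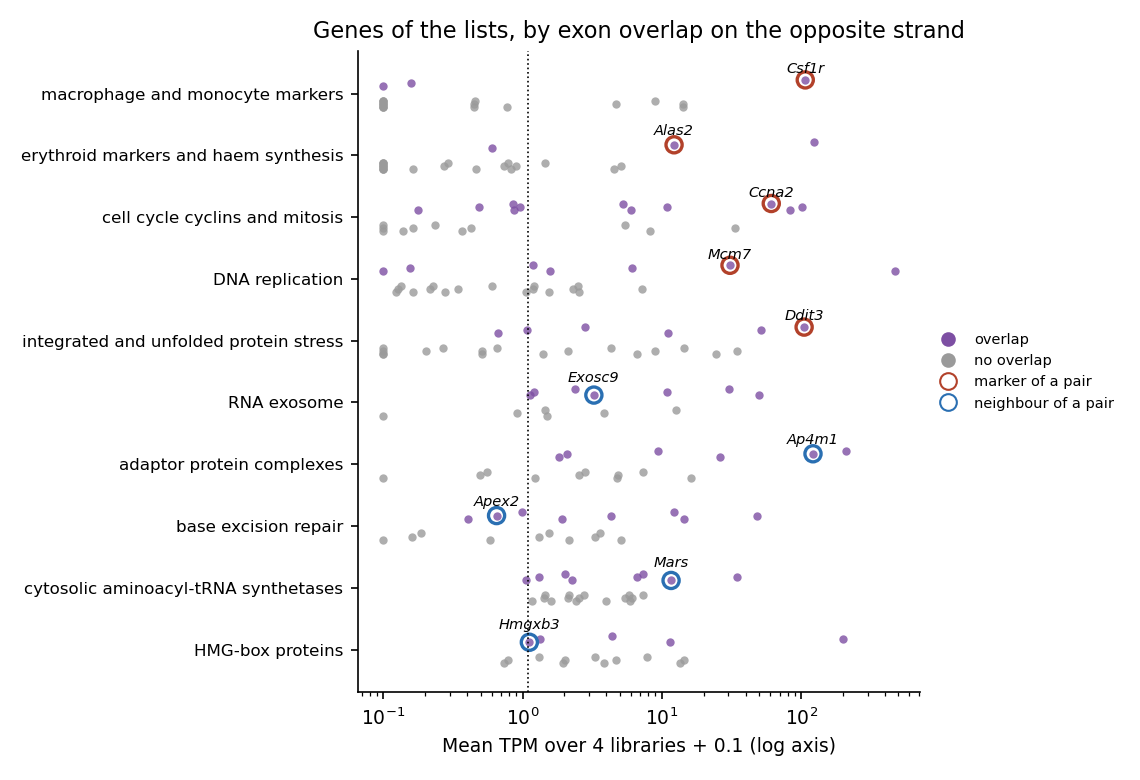
Mean TPM + 0.1 on a log axis for every matched gene of the 10 lists, purple with and grey without an exon overlap on the opposite strand, with the 5 markers ringed in red and the 5 neighbours in blue. The dotted line is the detection level of 1 TPM; Csf1r and Ddit3 lie at the right end of their lists, while the other 5 ring subunits beside Mcm7 lie at or below 2.42 TPM in grey.

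The 5 pairs were set beside all 1388 pairs of coding genes that share exon bases on opposite strands, of which 783 lay tail to tail, 454 head to head and 151 nested. In 1078 of them the mean counts of both genes summed to at least 20. In 837 of these, 77.6%, 1 gene was at least 2-fold denser than the other in every library, and this held for 5 of the 5 pairs. The median size of the log2 ratio over the 1078 pairs was 3.34, with quartiles of 1.70 and 5.04. Csf1r and Hmgxb3 exceeded 90.7% of the pairs, Ccna2 and Exosc9 64.8%, Alas2 and Apex2 62.1%, Ddit3 and Mars 47.3%, and Mcm7 and Ap4m1 28.6%.

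Each pair was set beside the other pairs of like arrangement with the nearest overlap length, with all ties given. Homer3 and Ddx49 had a log2 ratio of 2.52 ± 0.33 and Inpp5e and Pmpca one of 2.25 ± 0.28, both with 874 shared bases, against 6.91 for Csf1r and Hmgxb3. The nested Gcc1 and Arf5, with 313 shared bases, had 1.62 ± 0.35, against 4.19 for Alas2 and Apex2. 1700030K09Rik and Cherp, with 513 shared bases, had 5.00 ± 0.47, against 4.34 for Ccna2 and Exosc9. The head to head C730034F03Rik and Chkb, with 320 shared bases, had 5.81 ± 0.14, against a ratio of size 1.98 for Mcm7 and Ap4m1. With 68 shared bases, Cers1 and Upf1 had 0.61 ± 0.87, Hexdc and Cybc1 2.91 ± 0.88, and Gapdh and Iffo1 3.59 ± 0.79, against 3.16 for Ddit3 and Mars (SD, n = 4 in each). The nearest pairs thus had smaller ratios than the Csf1r and Alas2 pairs, larger ones than the Ccna2 and Mcm7 pairs, and ratios on both sides of the Ddit3 pair.

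**Figure D4:**
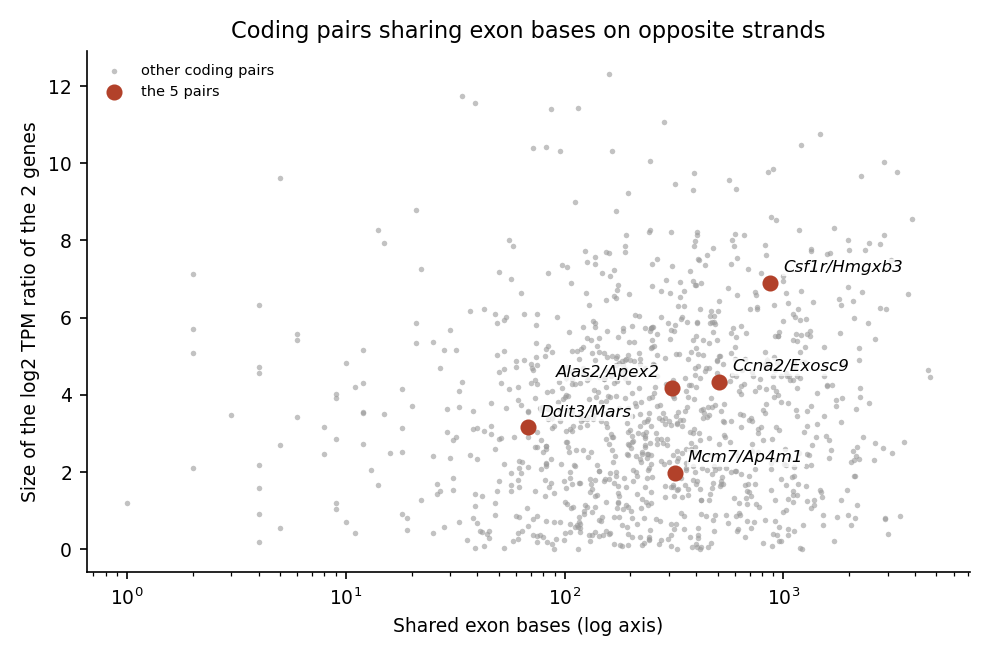
Size of the mean log2 ratio of the TPM values of both genes against the number of shared exon bases (log axis) for 1078 coding pairs, each point 1 pair. The 5 named pairs (red) lie among the other pairs (grey), with Csf1r and Hmgxb3 the highest of them at 6.91.

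The spread between libraries was not used to choose the genes and could be tested. Of 5755 genes tested with an upper-tail F test of the edgeR quasi-dispersion against its fitted trend, 16 were more variable than the trend at an adjusted p of 0.05, which is 0.278%. Csf1r, Alas2, Ccna2, Mcm7, Ap4m1, Ddit3 and Mars were tested and 0 of these 7 passed. By edgeR, their unadjusted p-values ran from 0.126 for Ddit3 to 0.921 for Mars, 0 under 0.05, with an adjusted p of 0.995 for each. Of all 5755 genes tested, 285 had an unadjusted p under 0.05 in the same F test, which is 4.95%. DESeq2 called 21 dispersion outliers, none of them among the 10 genes. Hmgxb3, Apex2 and Exosc9 had too few counts to enter the test.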

How the data were processed

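Gene-level fragment counts of 4 libraries of 1 group were used. The deposited counts are raw: read pairs with both ends aligned were counted by the authors with featureCounts 1.4.6-p4, per the file headers, on a STAR alignment, over exons of GENCODE mouse release 13 on mm10, with strand setting 1. The deposited exon length in bases was the other column used. The library kit is not given in the sources used here.

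TPM and log2 ratios (pseudocount 0.1 TPM) were computed from these in Python 3.11.15 with pandas 2.3.3. Of 50600 genes, 50376 had a symbol, and gene types and transcripts came from GENCODE release 21. Opposite-strand pairs shared at least 1 exon base. Density folds have exact (Clopper-Pearson) 95% intervals, computed with scipy 1.17.1. Spread was tested with edgeR 4.0.16 in R 4.3.3 (filterByExpr, TMM, intercept only, quasi-likelihood fit) with Benjamini-Hochberg adjustment over all genes tested, and with DESeq2 1.42.0 as an alternative, after the script had been tested on simulated data. No library copied another, since counts of the 6 library pairs gave chi-square values of 7.35 to 30.9 per degree of freedom.

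Members and lists were chosen with earlier results of these data known. The genes named are the 10 members, genes whose exons overlap theirs, from each list the 2 highest with and the 2 highest without an opposite exon overlap, and for each pair the nearest other pair by overlap length (ties included). Other names, such as genes at 0, the Mcm and AP-4 subunits, Atf4, Trib3 and other stress genes, B4galt3, Gse1, mt-Nd6 and the T-helper 2 genes, were chosen after their values were seen. So were Cd163, Cd68 and Mki67. Alternatives were the pseudocount, CPM without length, the shared length, totals that leave out mt-Nd6 and CT010467.1, a ribosomal RNA locus, TPM shares, other detection limits, other normalisation and filters, and leaving out each replicate.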

Additional observations from a re-analysis of the deposited data

Results flagged for a closer look

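One value of the 10 genes, their 5 ratios and the 5 list shares stood apart from the other libraries. The level of Mars was 14.3 TPM in replicate 3 against 10.4, 10.8 and 10.7 TPM in replicates 1, 2 and 4. The gap to the nearest library was 0.886 of the whole range. This was 1 of 20 groups of 4 values examined, and chance flags about 1 in 20. Without replicate 3 the mean of Mars was 10.6 TPM, against 11.6 TPM with it, and the log2 ratio of Ddit3 to Mars was 3.16 in both cases. The cause was not tested.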

How the results depend on the processing

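All 5 ratios kept their direction under another pseudocount, CPM, other totals and without any 1 replicate. Dividing the marker's counts by the shared exon bases alone moved every ratio by construction, to 9.40 for Csf1r and Hmgxb3, 7.13 for Alas2 and Apex2, 7.34 for Ccna2 and Exosc9 and 7.81 for Ddit3 and Mars, and reversed that of Mcm7 and Ap4m1 to 1.80. CPM without length gave 2.53 for Alas2, -2.26 for Mcm7 and 2.17 for Ddit3 against their neighbours. A pseudocount of 1 TPM gave 3.01 for Alas2 and Apex2. As a share of TPM in place of counts, Csf1r took 71.1% of its list, Alas2 8.01%, Ccna2 19.2% and Ddit3 38.8%. The number of genes more variable than the trend fell from 16 to between 7 and 10 without 1 replicate, on fewer libraries, and was 15 with RLE factors and 15 with adjusted degrees of freedom. In all, 68 of 85 alternative values stayed within the spread or 1.5 times of the count. No paired analysis was possible because there was 1 group. Hmgxb3, Apex2 and Exosc9 had 29, 26 and 75 counts over all libraries, which limits the precision of their ratios.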
